A study of Mus musculus with 4 samples.

Results

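The sarcomeric myosin heavy chains are the motor proteins of the thick filament of striated muscle. All 8 chains studied here, encoded by Myh1, Myh2, Myh3, Myh4, Myh6, Myh7, Myh7b and Myh8, were named on the array, among 22180 genes in all. Each was represented by the 1 probe set, a row of the table, that was paired with exactly its symbol. Myh8 had a second such row, and its brighter row, by the mean over all arrays, was used. RNA of the quadriceps, the knee extensor of the thigh, was measured on whole-transcript expression arrays in 2 NF90-NF45 double transgenic (dbTg) mice and 2 wild-type (WT) mice, 1 array per mouse. dbTg mice carried transgenes for NF90 and NF45, a pair of double-stranded RNA-binding proteins, and were 16 weeks old. WT mice were 17 to 18 weeks old (replicate 1) and 16 weeks old (replicate 2). In both genotypes replicate 1 was male and replicate 2 female. The promoter of the transgenes and the strain of the mice were not stated in what was used here.

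Muscle fibres differ in which heavy chain they hold, and the chain largely sets how fast a fibre contracts. In rodents the embryonic chain (Myh3) and the perinatal chain (Myh8) are made in developing fibres and again in regenerating ones, and are replaced after birth by adult chains. The adult fast chains IIa (Myh2), IIx (Myh1) and IIb (Myh4) go, in that order, with faster contraction, and the slow chain I (Myh7), also the beta chain of the heart, marks slow oxidative fibres. Myh6 encodes the alpha chain of the heart, and Myh7b an ancient slow-tonic type of chain known from a few specialised muscles. Quadriceps of the mouse is mostly made of fast fibres.

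Myh3, Myh2, Myh1, Myh4 and Myh8 are neighbours on chromosome 11, in this order, with Myh13, the chain of the eye muscles, after Myh8. The noncoding gene 2310065F04Rik, also called linc-Myh, lies between Myh3 and Myh2. RefSeq windows around the start of transcription (GRCm38.p6, 250 bases before and 50 after it) were held for 8 of the 8 members. The windows of Myh3 and Myh8, which carry the differences described below, are shown with those of their adult neighbours Myh1 and Myh4. Capitals mark every match, on either strand, of the E-box CANNTG bound by factors such as MyoD and myogenin, of TATAAA, of the MEF3 motif TCAGGTT, of the M-CAT motif CATTCC, and of the MEF2 and CArG consensus motifs.
Myh3, chr11:67078050-67078349, plus strand: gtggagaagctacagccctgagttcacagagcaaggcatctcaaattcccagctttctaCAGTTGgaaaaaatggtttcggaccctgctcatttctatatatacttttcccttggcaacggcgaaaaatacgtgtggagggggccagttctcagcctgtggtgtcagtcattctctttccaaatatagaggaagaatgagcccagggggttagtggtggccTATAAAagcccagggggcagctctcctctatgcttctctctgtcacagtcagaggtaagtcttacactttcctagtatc
Myh8, chr11:67276874-67277173, plus strand: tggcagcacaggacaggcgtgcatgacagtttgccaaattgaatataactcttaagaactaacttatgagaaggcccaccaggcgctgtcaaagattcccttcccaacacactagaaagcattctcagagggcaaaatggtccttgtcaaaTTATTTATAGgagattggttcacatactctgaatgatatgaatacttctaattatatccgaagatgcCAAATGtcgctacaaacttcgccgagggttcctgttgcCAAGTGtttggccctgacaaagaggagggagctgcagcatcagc
Myh1, chr11:67199852-67200151, plus strand: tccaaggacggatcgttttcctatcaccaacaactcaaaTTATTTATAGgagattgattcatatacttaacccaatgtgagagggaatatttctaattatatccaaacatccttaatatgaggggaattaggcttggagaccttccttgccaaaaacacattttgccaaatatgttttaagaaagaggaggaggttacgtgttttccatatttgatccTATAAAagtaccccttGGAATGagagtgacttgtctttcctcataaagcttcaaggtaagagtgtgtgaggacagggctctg
Myh4, chr11:67237562-67237861, plus strand: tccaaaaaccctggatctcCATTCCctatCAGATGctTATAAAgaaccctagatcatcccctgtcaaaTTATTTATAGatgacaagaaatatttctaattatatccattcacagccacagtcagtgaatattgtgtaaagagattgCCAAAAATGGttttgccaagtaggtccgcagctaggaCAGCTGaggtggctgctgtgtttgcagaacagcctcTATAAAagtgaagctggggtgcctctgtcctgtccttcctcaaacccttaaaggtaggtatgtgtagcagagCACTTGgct

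The windows of Myh8, Myh1 and Myh4 held the same MEF2 match, TTATTTATAG, which also holds a match to TATAAA on the other strand. A MEF2 match stood in 3 of the 8 members' windows and in 3.19% of the 32851 RefSeq windows of this length. That of Myh3 held 1 E-box and 1 TATAAA match, that of Myh8 2 E-boxes and 1 TATAAA match (inside the MEF2 match), and that of Myh4 3 of each, with 1 of its TATAAA matches inside the MEF2 match. Myh4 alone among the members had a CArG match. E-boxes stood in 72.3%, TATAAA in 13.6%, M-CAT in 14.7%, CArG in 1.63% and MEF3 in 4.07% of all windows, and MEF3 in 0 of the members'. These are matches of letters and show no binding.

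The files hold RMA values on the log2 scale with no call of presence, so a difference of 1 is a 2-fold difference and a low value has no measured floor. Values were compared between arrays for the same gene, and never between genes, since different probes differ in brightness. Ilf2, the gene of NF45, read 10.36 and 10.16 in dbTg against 5.03 and 5.04 in WT. The 8 skeletal muscle fibre markers averaged 9.72 and 9.57 in dbTg and 9.88 and 9.94 in WT, with actin Acta1 at 11.16 and 11.06 against 11.02 and 11.05. The 5 heart muscle markers averaged 2.12 and 1.74 in dbTg and 1.39 and 1.58 in WT. Groups were compared with limma over the 13308 genes at or above an intensity filter, with a threshold of 0.05 on the Benjamini-Hochberg adjusted p. That called 294 genes, or 2.21%: 267 higher (2.01%) and 27 lower (0.203%) in dbTg. Of the 8 members, 7 were tested, 1 rose, 0 fell and 6 were not called. At an unadjusted p under 0.05 there were 4 of the 7, beside 18.7% of all tested genes. An exact permutation test of 2 arrays against 2 cannot give a p below 0.333. Fewer fibres of a type and less RNA per fibre cannot be told apart in whole muscle.

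**Figure D1:**
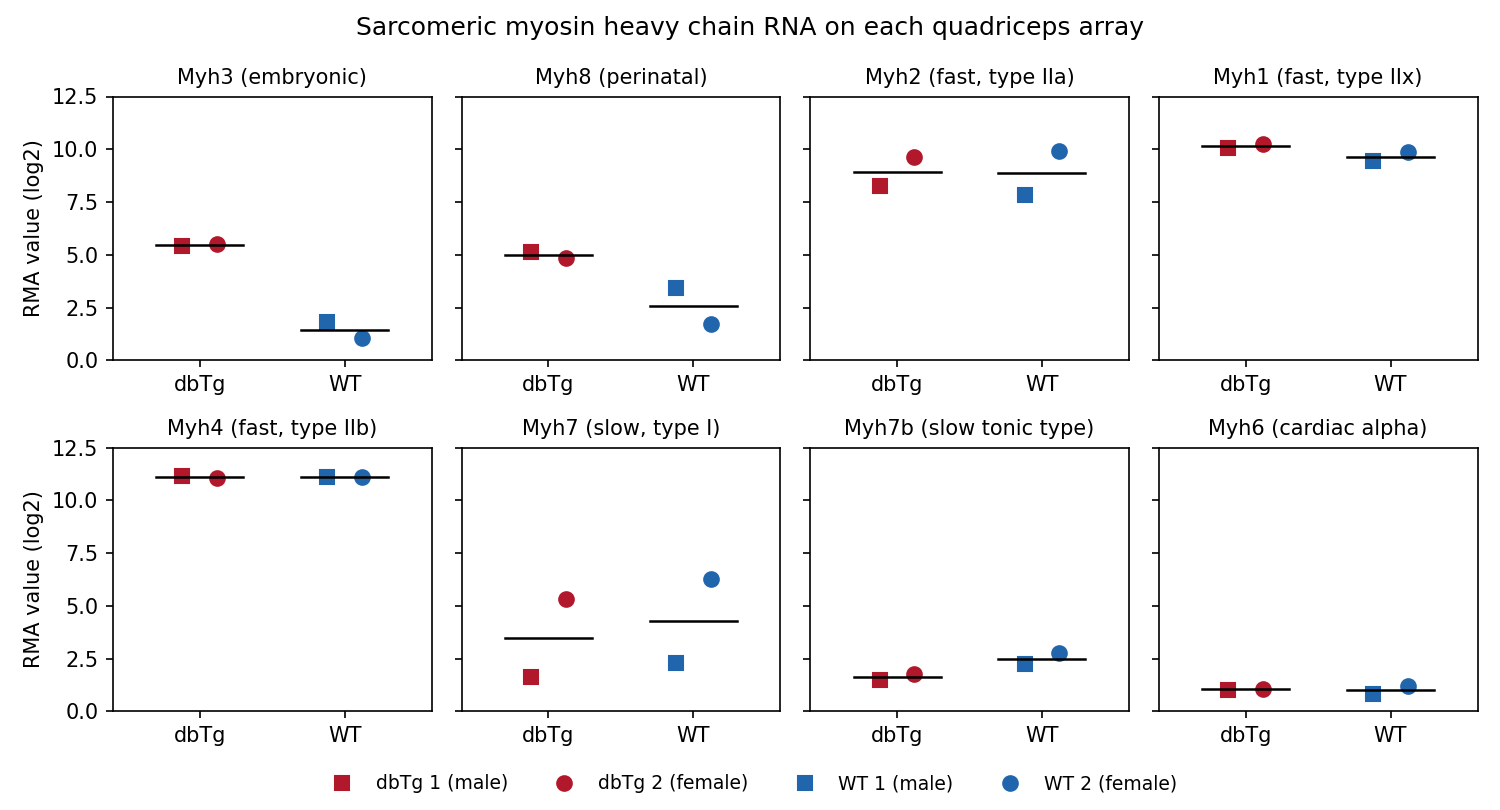
Log2 RMA values of each myosin heavy chain on each array, with dbTg left and WT right in every panel; squares are male, circles female, and lines the mean of the 2 arrays. Both dbTg arrays lie above both WT arrays for Myh3, Myh8 and Myh1, and below them for Myh7b.

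The embryonic chain rose. Myh3 read 5.41 and 5.52 in dbTg against 1.82 and 1.06 in WT, so the dbTg arrays lay close together and far above both WT arrays. Its mean was 5.47 ± 0.0808 in dbTg and 1.44 ± 0.536 in WT (SD, n = 2 each), and the WT mean lay under the intensity filter of 1.48, so that Myh3 was tested only through its dbTg values. The fitted difference of the measured values was 4.03 on the log2 scale (SE 0.29, 95% interval 3.33 to 4.72, limma adjusted p = 0.00309), and with no floor for the WT values no fold is given. It was 3.59 in the male pair and 4.46 in the female pair. Without dbTg replicate 1 the difference was 4.08 and without dbTg replicate 2 it was 3.97, and both times the call was lost (adjusted p = 0.0755 and 0.09), the lone dbTg array being assumed to vary like the WT arrays. Leukocyte markers were higher in the same mice, as given below, and their part in the difference of Myh3 was not tested.

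The perinatal chain had a positive difference that did not pass the threshold. Myh8 read 5.14 and 4.83 in dbTg against 3.45 and 1.72 in WT. The groups did not overlap, and the WT arrays stood further apart from each other than the dbTg arrays did. The difference was 2.40 (SE 0.518, 95% interval 1.17 to 3.63, limma adjusted p = 0.0723), 1.68 for the males and 3.11 for the females. Leaving out WT replicate 1 gave 3.27 and a call (adjusted p = 0.000339), as did leaving out WT replicate 2, with 1.53 (adjusted p = 0.00988). In both fits the lone WT array was assumed to vary like the dbTg arrays, whose SD was 0.217 against 1.23 in WT, and the same assumption stands behind every value given here with an array left out. The dimmer Myh8 row read 2.76 and 2.64 in dbTg against 2.29 and 2.45 in WT, a difference of 0.33 (adjusted p = 0.473 with every row tested on its own). The mean of both rows gave 1.36. Which part of the gene each row reads was not stated in what was used here.

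The adult fast chains did not pass the threshold. Myh4, the IIb chain, read 11.15 and 11.04 in dbTg against 11.10 and 11.10 in WT. Its groups overlapped, and its difference was -0.01 (SE 0.102, 95% interval -0.251 to 0.236, limma adjusted p = 0.981). These values lay near the top of the scale, where the brightest row of an array read 11.92 to 12.36, and whether the scale is compressed there was not tested. Myh1, the IIx chain, read 10.05 and 10.27 in dbTg against 9.43 and 9.89 in WT, so both dbTg arrays were higher. Its difference was 0.51 (SE 0.177, 95% interval 0.0854 to 0.928, adjusted p = 0.191), and 0.26 after median centring of the arrays. Centring moved the median difference of all tested genes from 0.089 to -0.159.

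Myh2, the IIa chain, read 8.24 and 9.63 in dbTg against 7.83 and 9.90 in WT. On both sides the female array was the higher, and the genotypes overlapped. The difference was 0.07 (SE 0.689, 95% interval -1.57 to 1.71, limma adjusted p = 0.972), and it was -0.18 after median centring. Leaving out WT replicate 1 gave -0.96, and leaving out WT replicate 2 gave 1.11. The probes of these closely related neighbours may read each other's RNA, and the probe sequences were not used here.

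**Figure D2:**
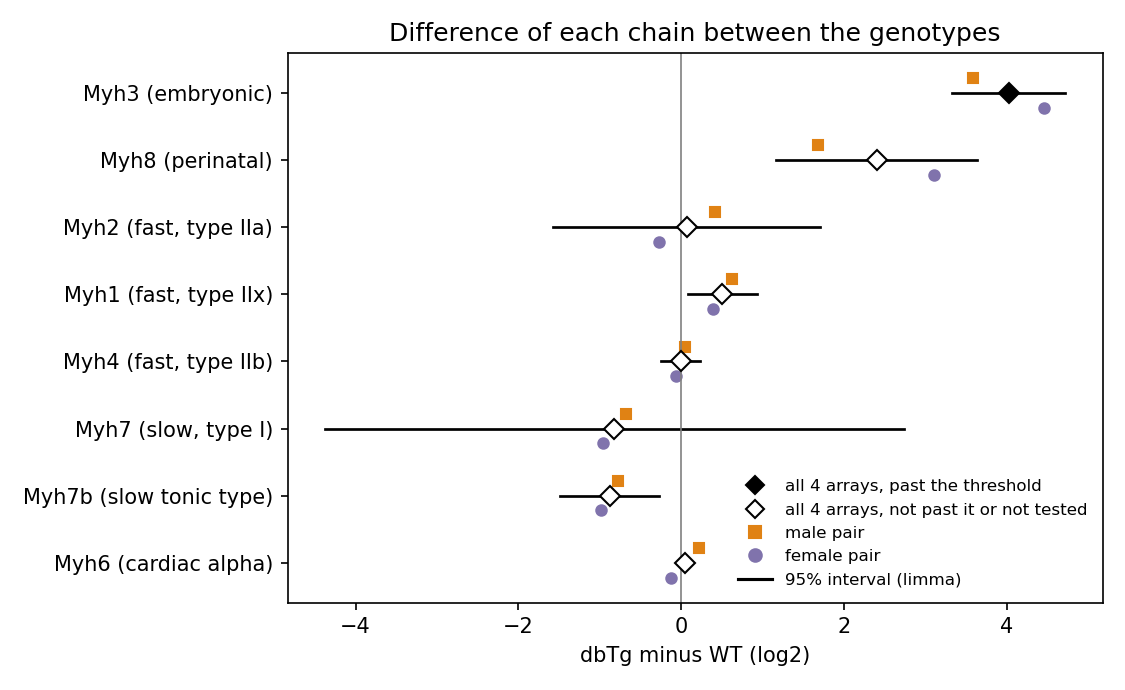
Difference of each chain, dbTg minus WT on the log2 scale; diamonds are the fit over all 4 arrays with its 95% interval from limma, filled for Myh3, which passed the threshold, and squares and circles are the male and the female pair. Myh7 and Myh2 have the widest intervals, and Myh6 has none because it was not tested.

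The slow chain split by replicate number within both genotypes. Myh7 read 1.62 and 5.33 in dbTg against 2.30 and 6.29 in WT. The female array was higher than the male one by 3.70 in dbTg and by 3.99 in WT, and the genotypes overlapped. The difference between genotypes was -0.82 (SE 1.49, 95% interval -4.38 to 2.74, limma adjusted p = 0.823), which was -0.68 for the males and -0.97 for the females. It turned to 1.03 without dbTg replicate 1 and to 1.17 without WT replicate 2, and was -2.82 with WT replicate 1 left out and -2.67 with dbTg replicate 2 left out. Leaving out an array leaves one genotype with a single sex. Sex and replicate number cannot be told apart here, with 1 mouse of each sex per genotype. The interval above counts this split as spread between arrays. With the replicate number as a block the SE of Myh7 was 0.216 and the difference was not called (limma adjusted p = 0.164).

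Myh7b and Myh6 had low values. Myh7b read 1.47 and 1.78 in dbTg against 2.24 and 2.77 in WT, with both dbTg arrays lower. Its difference was -0.88 (SE 0.255, 95% interval -1.49 to -0.271, limma adjusted p = 0.135). Leaving out WT replicate 1 gave -1.14 and leaving out WT replicate 2 gave -0.61. Myh6 read 1.03 and 1.06 in dbTg against 0.81 and 1.19 in WT, lay under the intensity filter and was not tested. Its groups overlapped and its means differed by 0.04. Over the tested members, the groups did not overlap for 3 chains that were higher (Myh3, Myh8, Myh1) and 1 that was lower (Myh7b). Of all tested genes, 33.7% were higher and 16.3% lower without overlap, or 50.0% together, and the 4 of 7 members lie near that share.

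By role, averages of the chains restate the values of their members. Myh3 and Myh8 each had both dbTg arrays above both WT arrays, as had 33.7% of all tested genes. Their average therefore had to separate the genotypes. The average of the adult fast chains did not separate them. For each array, the deviations of the genes from their own 4-array means were averaged. Over Myh3 and Myh8 this gave 1.65 and 1.56 in dbTg and -0.98 and -2.23 in WT. Over the adult chains Myh1, Myh2 and Myh4 it gave -0.16 and 0.35 in dbTg and -0.52 and 0.33 in WT. Over the slow and cardiac chains Myh6, Myh7 and Myh7b it gave -0.95 and 0.40 in dbTg and -0.54 and 1.09 in WT. The developmental chains less the adult fast and slow chains (Myh1, Myh2, Myh4, Myh7) stood at 2.34 and 0.94 in dbTg and at -0.20 and -3.08 in WT, so that both dbTg arrays were above both WT arrays. Within each genotype this value was lower on the female array, on which Myh7 and Myh2 were higher. The average of Myh3 and Myh8 was lower there too, at -2.23 against -0.98 in WT and 1.56 against 1.65 in dbTg. These averages were given no test.

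The introns of the slow and cardiac chains hold microRNAs of the heart and of slow muscle. RefSeq places Mir208a within Myh6, Mir208b within Myh7 and Mir499 within Myh7b. Their main mature products are shown because they share most of their seed with each other, bases 2 to 8, given in capitals.
mmu-miR-208a-3p: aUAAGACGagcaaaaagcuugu
mmu-miR-208b-3p: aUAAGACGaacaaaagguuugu
mmu-miR-499-5p: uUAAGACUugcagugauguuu

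The rows of these loci were dim, and none was tested. Mir499 read 0.80 and 0.69 in dbTg against 1.16 and 1.53 in WT, lower on both dbTg arrays. Its host gene Myh7b was lower on both as well, as were 16.3% of all tested genes. Mir208b read 0.67 and 0.64 in dbTg against 0.89 and 0.71 in WT, also lower on both dbTg arrays, while its host gene Myh7 overlapped. Mir208a read 0.73 and 0.64 against 0.70 and 0.80. The 25th percentile of all rows was itself lower on the dbTg arrays, at 0.99 and 0.99 against 1.10 and 1.09 in WT. The row of Mir208b did not show the split by replicate number of its host gene Myh7. A whole-transcript array does not tell a mature microRNA from its precursors. The noncoding gene 2310065F04Rik, known in mouse as an RNA of fast fibres, read 6.58 and 5.42 in dbTg against 6.34 and 5.39 in WT. Here the male array was the higher in both genotypes, and the difference was 0.14 (limma adjusted p = 0.909; -0.11 after median centring, -0.44 without dbTg replicate 1 and -0.34 without WT replicate 2).

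Partners of the chains in slow fibres split by replicate number as Myh7 did. Of 10 tested slow partners, limma called 0 (2.21% of all tested genes), with 1 at an unadjusted p under 0.05 (18.7% of all tested genes). Beside 3128 of all 13308 tested genes, 9 of these 10 were higher on the female array in both genotypes. Their median excess of the female over the male array was 0.79 in dbTg and 2.38 in WT, against -0.01 and -0.01 over all tested genes. Tnnc1, the slow and cardiac troponin C, read 3.14 and 5.41 in dbTg against 2.19 and 6.54 in WT. The slow light chain gene Myl3 read 1.62 and 3.35 in dbTg against 1.58 and 4.87 in WT. Both were low on the male arrays and high on the female arrays of both genotypes. The median difference between genotypes was 0.07, against 0.089 over all tested genes.

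Some slow partners were low on a single array, WT replicate 1. The calsequestrin gene Casq2, which buffers calcium in slow and cardiac muscle, read 6.45 and 6.80 in dbTg against 3.78 and 5.999 in WT. Its difference was 1.74 (SE 0.631, limma adjusted p = 0.206); leaving out WT replicate 2 gave 2.84 and a call (adjusted p = 0.00042), and leaving out WT replicate 1 gave 0.63 and none (adjusted p = 0.132). Myoz2, a Z-disc protein of slow fibres, read 6.55 and 7.41 in dbTg against 4.19 and 7.31 in WT, with a difference of 1.23 (adjusted p = 0.517), which became -0.33 when WT replicate 1 was left out and 2.80 when WT replicate 2 was (adjusted p = 0.00259). WT replicate 1 was also the mouse of 17 to 18 weeks. The part of age was not tested.

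**Figure D3:**
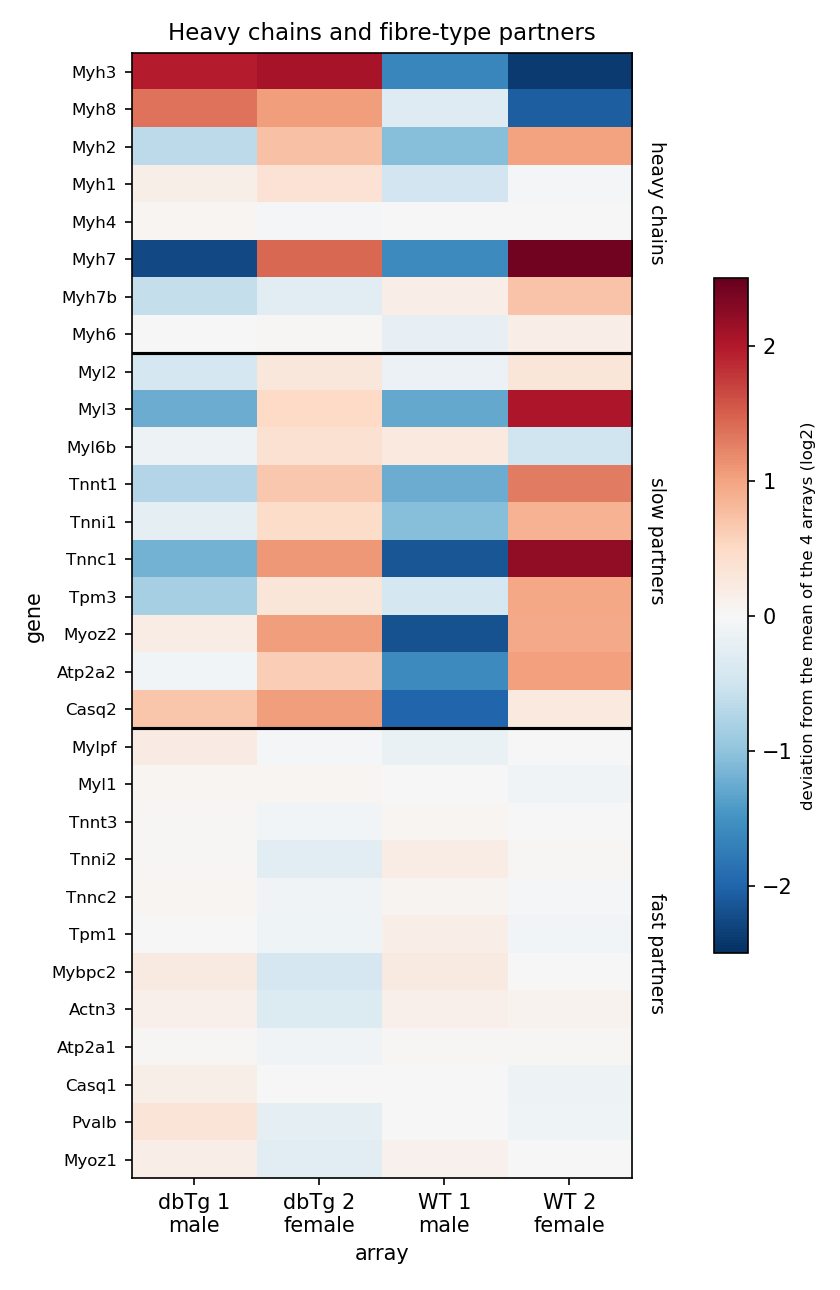
Deviation of each gene from its mean over the 4 arrays (log2, colour) for the 8 heavy chains, 10 slow partners and 12 fast partners (rows), with dbTg arrays left and WT arrays right. Myh7, Tnnc1 and Myl3 are high in the columns of both females, Myh3 and Myh8 in both dbTg columns, and the fast partners stay near 0 throughout.

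The partners of the chains in fast fibres had small differences. Of 12 tested, limma called 0 (2.21% of all tested genes), and 0 were at an unadjusted p under 0.05 (18.7% of all tested genes). Their differences lay between -0.23 and 0.19 with a median of -0.05. Mylpf, the fast regulatory light chain, read 10.34 and 10.10 in dbTg against 9.95 and 10.11 in WT, a difference of 0.19 (adjusted p = 0.5; -0.06 after median centring). Tnni2, the fast troponin I, read 9.36 and 9.07 in dbTg against 9.52 and 9.36 in WT, a difference of -0.23 (adjusted p = 0.465). Neither gene separated the genotypes by more than its arrays spread.

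Part of the genes of embryonic and regenerating muscle rose beside Myh3. Of 12 tested genes of this list, limma called 6 higher and 0 lower, beside 2.01% and 0.203% of all tested genes. At an unadjusted p under 0.05 there were 10 (18.7% of all tested genes). The median difference was 1.38, against 0.089 over all tested genes. The 6 were Ncam1, Tnnt2, Chrna1, Myl4, Mymk and Chrng. The embryonic light chain gene Myl4, whose product can pair with heavy chains of developing muscle, rose by 1.36 (SE 0.21, adjusted p = 0.0333): it read 3.61 and 3.55 in dbTg against 2.27 and 2.18 in WT. It was not called after quantile normalization (adjusted p = 0.0627), after median centring (adjusted p = 0.0631) or with the replicate number as a block (adjusted p = 0.0904). Tnnt2, the troponin T of heart and embryonic muscle, read 6.33 and 6.19 in dbTg against 3.77 and 3.85 in WT, a rise of 2.45 (SE 0.176, adjusted p = 0.00309).

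Genes of the fibre surface in this list rose as well. The acetylcholine receptor subunit gene Chrna1 read 6.01 and 6.08 in dbTg against 3.43 and 3.63 in WT (2.52, SE 0.185, limma adjusted p = 0.00309). The cell adhesion gene Ncam1 read 6.72 and 7.07 in dbTg against 4.02 and 3.77 in WT (3.002, SE 0.203, adjusted p = 0.00309). For both genes the genotypes lay far apart beside the spread within each. Their calls were lost when either dbTg array was left out, as for Myh3.

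Genes that regulate the heavy chain genes or build the thick filament mostly did not pass the threshold. Of 23 tested regulators, limma called 1 higher and 0 lower, beside 2.01% and 0.203% of all tested genes. At an unadjusted p under 0.05 there were 5, near the 18.7% of all tested genes, and the median was -0.04. Rcan1, an inhibitor of the phosphatase calcineurin and a target of its signalling, read 6.45 and 6.45 in dbTg against 5.21 and 4.79 in WT, a rise of 1.45 (SE 0.196, adjusted p = 0.0239). The call was lost with the replicate number as a block (adjusted p = 0.0631) and with either dbTg array left out (adjusted p = 0.193 and 0.259). Of 13 tested genes of thick filament assembly and the M-band, 0 were called, with 5 at an unadjusted p under 0.05 (18.7% of all tested genes) and a median of -0.15. Hsp90aa1, a chaperone of myosin folding, read 3.27 and 3.44 in dbTg against 2.47 and 2.70 in WT, with a difference of 0.77 (adjusted p = 0.13). Myom1, the M-band protein myomesin 1, read 8.91 and 8.86 in dbTg against 9.31 and 9.27 in WT, with a difference of -0.40 (adjusted p = 0.138). The groups of Hsp90aa1 and Myom1 did not overlap, as for 50.0% of all tested genes. Of the 13 genes, 5 had positive and 8 negative differences. The lowest was that of Unc45b, also a chaperone of myosin, at -0.85 (limma adjusted p = 0.149), with both dbTg arrays lower.

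Class II myosin heavy chains outside the sarcomere set had 0 of 5 tested members called by limma, with 2 at an unadjusted p under 0.05 (18.7% of all tested genes). Myh9, a nonmuscle chain found in most cell types, read 4.83 and 4.94 in dbTg against 4.26 and 3.86 in WT, with a difference of 0.82 (adjusted p = 0.108; leaving out WT replicate 1 gave 1.03 and a call, adjusted p = 0.0342). Myh11, the smooth muscle chain, read 3.87 and 3.83 in dbTg against 4.38 and 4.34 in WT, with a difference of -0.52 (adjusted p = 0.209). Myh13 read 1.65 and 2.18 in dbTg against 2.22 and 2.33 in WT, with a difference of -0.36 (limma adjusted p = 0.488). Both dbTg arrays were higher for Myh9, as for 33.7% of all tested genes. They were lower for Myh11 and Myh13, as for 16.3%.

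**Figure D4:**
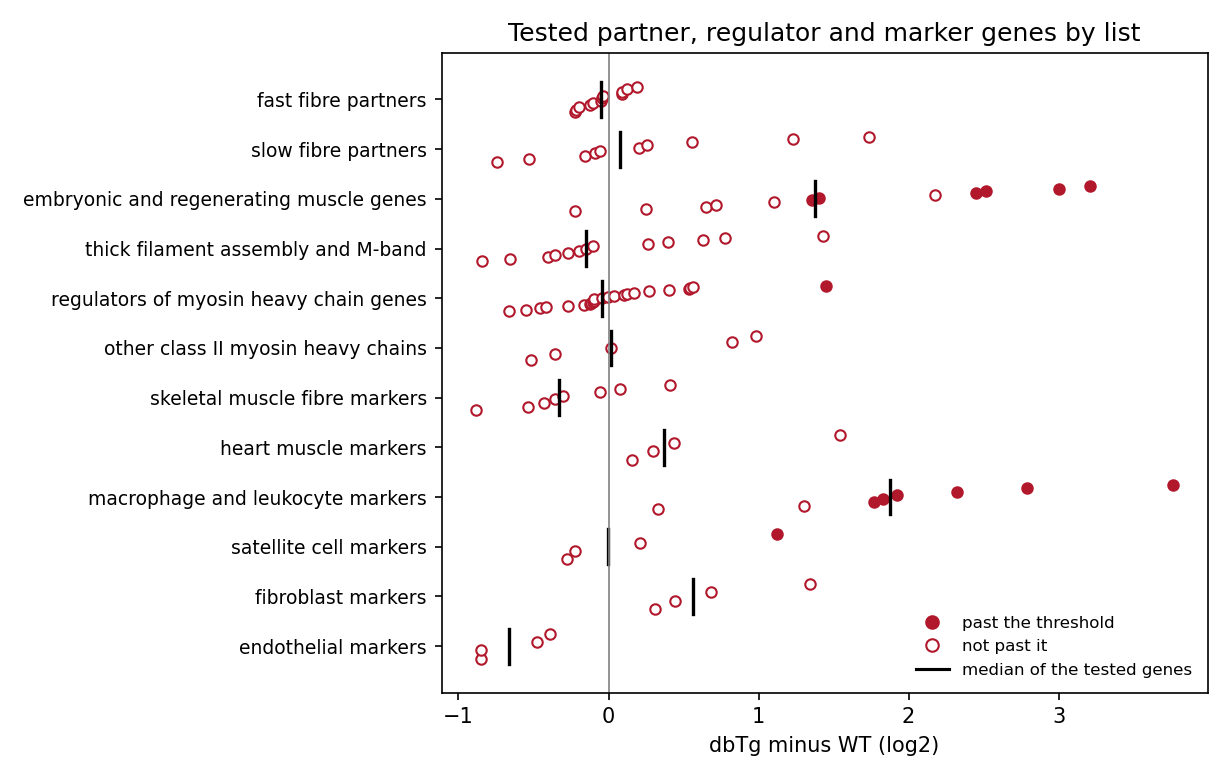
Differences, dbTg minus WT on the log2 scale, of the tested genes of each list (rows); filled circles passed the threshold and black bars are medians. Filled circles stand in the rows of embryonic and regenerating muscle genes (6), macrophage and leukocyte markers (6), regulators (1) and satellite cell markers (1).

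Macrophage and leukocyte markers were higher in the mice in which Myh3 was higher. Of 8 macrophage and leukocyte markers, limma called 6 higher, beside 2.01% of all tested genes. The mean level of the 8 was 5.11 and 4.71 in dbTg against 3.02 and 2.79 in WT. Their median difference was 1.87, against 0.089 over all tested genes. The named markers Cd68 (3.76), Ptprc (2.79), Lyz2 (2.32) and Itgam (1.77) were each higher on both dbTg arrays. Of 4 tested satellite cell markers, 1 was called: Myf5, a factor of muscle precursor cells, read 2.27 and 2.35 in dbTg against 1.27 and 1.11 in WT (1.12, adjusted p = 0.0397). Its WT mean lay under the intensity filter, and it was not called with a lower filter or none (adjusted p = 0.053 and 0.0578), after median centring (0.0763), after quantile normalization (0.0532), with the replicate number as a block (0.0958) or with either dbTg array left out (0.21 and 0.305). Another marker of these cells, Pax7, read 1.69 and 1.90 in dbTg against 1.83 and 2.31 in WT. Their part in the differences of Myh3 and Myh8 was not tested.

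Other markers were not called. Their counts of calls stand beside 2.21% of all tested genes, those at an unadjusted p under 0.05 beside 18.7%, and their medians beside 0.089. The 4 fibroblast markers had positive differences (median 0.56, 0 called, 2 at an unadjusted p under 0.05), Lum at 1.34 (past the threshold with WT replicate 1 left out, adjusted p = 0.0266) and Col1a1 at 0.68 among them. The 4 endothelial markers had negative differences (median -0.66, 0 called, 2 at an unadjusted p under 0.05), Cdh5 and Kdr both at -0.85. Of the skeletal muscle fibre markers 0 of 8 were called (4 at an unadjusted p under 0.05, median -0.33). Differences were negative for 6 and positive for 2. The calcium channel genes stood at -0.88 for Ryr1 (limma adjusted p = 0.0597) and at -0.54 for Cacna1s. Ryr1 was called after median centring (adjusted p = 0.0417). The positive ones were Des at 0.41 (adjusted p = 0.176) and Acta1 at 0.08. Des read 10.09 and 10.29 in dbTg against 9.89 and 9.67 in WT. Of 4 tested heart muscle markers 0 were called (1 at an unadjusted p under 0.05, median 0.37). The natriuretic peptide genes stood at 1.54 for Nppb (limma adjusted p = 0.072) and at 0.44 for Nppa. The WT mean of Nppb, 1.47, lay under the intensity filter of 1.48, so that Nppb was tested only through its dbTg values. Over the alternatives its difference ran from 1.06 to 2.02.

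The 4 array values of tested genes, each taken as deviations from the gene's own mean, were set against those of Myh3. Predicted genes, symbols of clones, microRNAs, odorant receptors and genes not reported here were left out. Of the rest, Cd68, Iigp1 and Ctss lay nearest. The root mean square difference over the 4 arrays was 0.136 for the macrophage glycoprotein gene Cd68, 0.334 for the interferon-inducible GTPase gene Iigp1 and 0.373 for the lysosomal protease gene Ctss. Cd68 read 6.33 and 6.38 in dbTg against 3.01 and 2.19 in WT, with WT replicate 2 the lowest, as for Myh3. With 4 arrays this likeness is a description of the order and size of the values.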

How the data were processed

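Total RNA of 4 quadriceps, 2 dbTg and 2 WT, was read on 1 array each. Per the labels, the authors made the deposited log2 values with RMA in Affymetrix Expression Console; its version and the array's genome build were not stated in what was used here. Of 41345 rows, 23521 had exactly 1 symbol, 1814 several and 16010 none. Entrez identifiers matched 23328 rows to a RefSeq table (GRCm38.p6), and 0 symbols changed. A gene took its row with the highest mean over the 4 arrays, and those from the 40th percentile of that mean (1.48) upwards were tested.

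The labelled groups were tested in R 4.3.3 with limma 3.58.1 (a linear fit, then eBayes with an intensity trend, 2 residual and 4.76 prior degrees of freedom, two-sided), adjusted over all tested genes. The procedure was tested on simulated data. Named genes were all members, up to 4 called genes of each list by smallest p or otherwise the 2 with the smallest p, and the 3 genes nearest to a called member. For the last, the kinds of gene given above were left out. Genes given beyond these (Tnnc1, Myl3, Pax7, Acta1, Des, Unc45b, Myh13, and Mymk and Chrng as names) were chosen after their values were seen. The members and lists were chosen with earlier results of these data known. Promoter and microRNA sequences are from RefSeq. The number of arrays limits the precision. Alternatives are given at the end.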

Additional observations from a re-analysis of the deposited data

Results flagged for a closer look

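The genotype difference had opposite signs in the male and the female pair for 3 chains, and this contrast between the sexes was not tested, with 1 array per sex and genotype. For Myh2 it was 0.413 in the male pair and -0.269 in the female pair. For Myh4 it was 0.0471 in the male pair and -0.0617 in the female pair. For Myh6, which lay under the intensity filter, it was 0.219 in the male pair and -0.131 in the female pair. The dimmer Myh8 row, which the comparison did not use, was higher on both dbTg arrays than on both WT arrays, by 0.327.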

How the results depend on the processing

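Of the 8 chains, Myh3 kept its direction in all 14 alternatives (3.65 to 4.40) and its call in 12, losing it without dbTg replicate 1 or 2 (adjusted p up to 0.09). Myh8 kept a positive difference in all 14 (1.36 to 3.27) and was called in 2, those without a WT array. Leaving out 1 array at a time gave -0.96 to 1.11 for Myh2, -2.82 to 1.17 for Myh7, -0.0603 to 0.0457 for Myh4, -1.14 to -0.61 for Myh7b, 0.28 to 0.74 for Myh1, 1.53 to 3.27 for Myh8, 3.65 to 4.40 for Myh3 and -0.15 to 0.23 for Myh6. Median centring turned Myh2 to -0.18, Mylpf to -0.0572, 2310065F04Rik to -0.11 and Myh6 to -0.20. Without 1 array, 2310065F04Rik lay between -0.44 and 0.72, and Myoz2 between -0.33 and 2.80.

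Leaving out arrays gave 0 to 3 called chains, 0 to 23 called partner, regulator and marker genes (14 of 106 in the test as reported, all higher) and 4 to 766 called genes of all tested (294 as reported). With the replicate number as a block 1 chain, 6 of these genes and 65 of all genes were called. Replicates of the same number share only that number and their sex. Their deviations from the group means correlated at 0.0486 across the tested genes, and the numbers were not taken to pair the mice. That value covers all tested genes and does not describe those that split by replicate number. With the block, the SE of Myh7 was 0.216 in place of 1.49 (difference -0.82, limma adjusted p = 0.164). The SE of Myh2 was 0.19 in place of 0.689 (difference 0.07, adjusted p = 0.889). After quantile normalization 9 of these genes and 127 of all were called (120 higher, 7 lower), after median centring 11 of these genes (9 higher, 2 lower) and 189 of all (124 higher, 65 lower), with the filter at the 20th percentile 193, and with none 172. The causes were not tested. With a lower filter more genes were adjusted over, and the fit was also made anew on them. Of the called genes of the lists, Myf5 lost its call in 7 of 13 alternatives, Myl4 in 5 of 14, Rcan1 and Itgam in 3 of 14 each, and Ncam1, Tnnt2, Chrna1, Cd68, Ptprc and Lyz2 in 2 of 14 each, with either dbTg array left out. Low rows such as Myh6 and the microRNA loci have no measured background, which limits what their values show.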
